A study of Mus musculus with 21 samples.

Results

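The GABA-A receptor is a chloride channel assembled from subunits, most often of the α, β and γ classes, and the transcripts followed here are Gabra2, Gabra3, Gabra4, Gabra5, Gabrb1, Gabrb2 and Gabrg1. These 7 genes were taken by name from a list of subunit genes, out of 16 genes of the GABA-A family analysed here and 35266 genes in the count table, and all 7 passed the filter on low counts. They encode the α2, α3, α4, α5, β1, β2 and γ1 subunits.

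Each library was made from a pool of 44 to 214 fluorescent neurons picked manually from the hypothalamic arcuate nucleus of 1 male mouse on a C57BL/6J background. AGRP neurons came from NPY-hrGFP mice and POMC neurons from Pomc-GFP mice. The first reporter marks cells that express Npy and therefore stands in for AGRP expression. All mice were moved to a new cage of their own 24 h before tissue was taken, with food and water (fed) or with water alone (food deprived, FD), at postnatal day 46 to 56. There were 5 fed AGRP, 6 FD AGRP, 5 fed POMC and 5 FD POMC libraries.

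GABA opens this channel and the flow of chloride usually inhibits the neuron. The α subunit shapes the affinity for GABA, the response to benzodiazepines and the place of the receptor on the cell, with α5 and α4 often found outside synapses and α2 and α3 at them. The β subunit holds the other side of the GABA site and links the receptor to trafficking proteins, and the γ subunit places it at synapses. AGRP neurons drive feeding and release GABA themselves, POMC neurons restrain feeding, and both receive GABA input.

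The 4 groups carried their labels in the transcripts that define them. Summed Agrp and Npy were between 12064 and 68921 TPM, a length-scaled abundance, in AGRP libraries and between 5.45 and 226 TPM in POMC libraries, and summed Pomc and Cartpt were between 8809 and 37160 TPM in POMC libraries and between 114 and 227 TPM in AGRP libraries. Libraries held 9822298 to 37663979 counts in genes (median 19189780), so that 3 counts stood for 0.0797 to 0.305 CPM (counts scaled to a library of 1000000). Because these are pooled cells, fewer cells that express a transcript and less transcript per cell cannot be told apart. Markers of glial and vascular cells summed to at most 14.5 TPM for 5 astrocyte genes, 16.1 TPM for 4 oligodendrocyte genes, 0.809 TPM for 4 microglial genes, 5.78 TPM for 4 endothelial genes and 2.77 TPM for 2 oligodendrocyte precursor genes in any library. Markers of other arcuate neurons (Kiss1, Ghrh, Th and Slc6a3) summed to at most 10.4 TPM in fed AGRP, 37.3 TPM in FD AGRP, 8.10 TPM in fed POMC and 3.88 TPM in FD POMC libraries. The sums of 4 tanycyte markers (Gpr50, Dio2, Scn7a and Crym) were higher, at 9.91 to 36.4 TPM in AGRP and 33.9 to 81.0 TPM in POMC libraries. Scn7a alone had means of 44.3 TPM in fed and 45.6 TPM in FD POMC libraries. Group means were at most 0.60 TPM for Gpr50 and 1.63 TPM for Crym.

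In mm10, 4 of the 7 genes sit next to each other on chromosome 5, in the order Gabrg1 (ENSMUSG00000001260, chr5:70751046-70842617), Gabra2 (ENSMUSG00000000560, chr5:70961056-71095849), Gabra4 (ENSMUSG00000029211, chr5:71569733-71658308) and Gabrb1 (ENSMUSG00000029212, chr5:71699931-72138389). Gabra5 (ENSMUSG00000055078, chr7:57407689-57510009) lies next to Gabrg3, Gabrb2 (ENSMUSG00000007653, chr11:42419756-42629028) is on chromosome 11, and Gabra3 (ENSMUSG00000031343, chrX:72432680-72656848) lies between Gabre and Gabrq. Counts were summed over exons without regard to strand. Of the 7, Gabra5 alone shared exon bases with another gene of GENCODE M21 (basic set), 148 of its 2974 exon bases with the antisense transcript Gm9962.

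The sequences just upstream of the 3 α subunit genes that changed in AGRP neurons are shown because the genes differed in direction and their promoters differed in base composition. A link between base composition and direction was not tested. All 7 genes matched the RefSeq promoter table by symbol (11 start sites, GRCm38.p6). Each line gives the 250 bases before a start site on the coding strand, all 3 on the minus strand, at chr5:71095850-71096099 for Gabra2, at chrX:72656920-72657169 for Gabra3 (the outer of its 2 start sites) and at chr7:57510060-57510309 for Gabra5. Capitals mark CG dinucleotides.
Gabra2: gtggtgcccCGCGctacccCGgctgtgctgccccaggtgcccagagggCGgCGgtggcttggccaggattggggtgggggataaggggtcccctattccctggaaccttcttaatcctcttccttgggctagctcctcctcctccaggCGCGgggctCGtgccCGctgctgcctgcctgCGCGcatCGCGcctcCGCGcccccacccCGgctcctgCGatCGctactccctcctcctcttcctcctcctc
Gabra3: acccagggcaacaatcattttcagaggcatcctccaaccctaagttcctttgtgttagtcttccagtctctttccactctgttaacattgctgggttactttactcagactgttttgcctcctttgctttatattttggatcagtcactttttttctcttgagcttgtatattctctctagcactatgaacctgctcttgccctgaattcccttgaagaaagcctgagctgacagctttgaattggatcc
Gabra5: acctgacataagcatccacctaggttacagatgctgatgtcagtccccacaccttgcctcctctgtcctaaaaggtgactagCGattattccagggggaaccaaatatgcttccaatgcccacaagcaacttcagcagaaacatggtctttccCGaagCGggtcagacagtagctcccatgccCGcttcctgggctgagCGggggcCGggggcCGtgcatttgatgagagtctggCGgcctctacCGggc
The Gabra2 window held 18 CG dinucleotides and 70.0% G or C, the Gabra5 window 9 and 56.4%, and the Gabra3 window 0 and 42.4%. The windows of the other 4 genes held from 1 (Gabrg1) to 18 (the outer Gabrb1 start site) CG dinucleotides. Over all 32851 promoters of the table the median was 6 CG dinucleotides, 21.7% had 18 or more, 40.3% had 9 or more and 7.87% had 0. Both strands were searched for CRE (TGACGTCA), AP-1 (TGANTCA), E-box (CACGTG), FOXO (GTAAACA), STAT (TTCNNNGAA), the glucocorticoid receptor core ACANNNTGT and TATAAA, and these 7 recognition sequences occurred in 1.55%, 6.75%, 6.02%, 3.17%, 7.02%, 5.84% and 12.4% of all windows. None of these letters occurred in the Gabra2 and Gabra5 windows. The Gabra3 window held 1 TATAAA on the opposite strand, read as TTTATA in the printed line and beginning 123 bases before the start site. The windows of the other 4 genes held 1 STAT match in Gabrg1, 1 ACANNNTGT in the inner of 2 Gabrb1 start sites and 1 TATAAA in the first of 3 Gabrb2 start sites. A match describes letters only.

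Food deprivation changed α subunit transcripts in AGRP neurons, and not in the same direction. Gabra2 rose 2.86-fold and Gabra5 rose 1.699-fold, while Gabra3 fell to 0.390 of its fed level. Gabra4, Gabrb1, Gabrb2 and Gabrg1 did not pass the test. Thus 3 of 7 genes were called (2 higher, 1 lower) at an adjusted p under 0.05, beside 10.3% of all 16513 genes tested (5.87% higher and 4.43% lower). For these 3 genes no FD library fell within the fed range, as for 7.65% of all genes. The median log2 fold change of the 7 was 0.76, beside -0.02 over all genes.

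**Figure D1:**
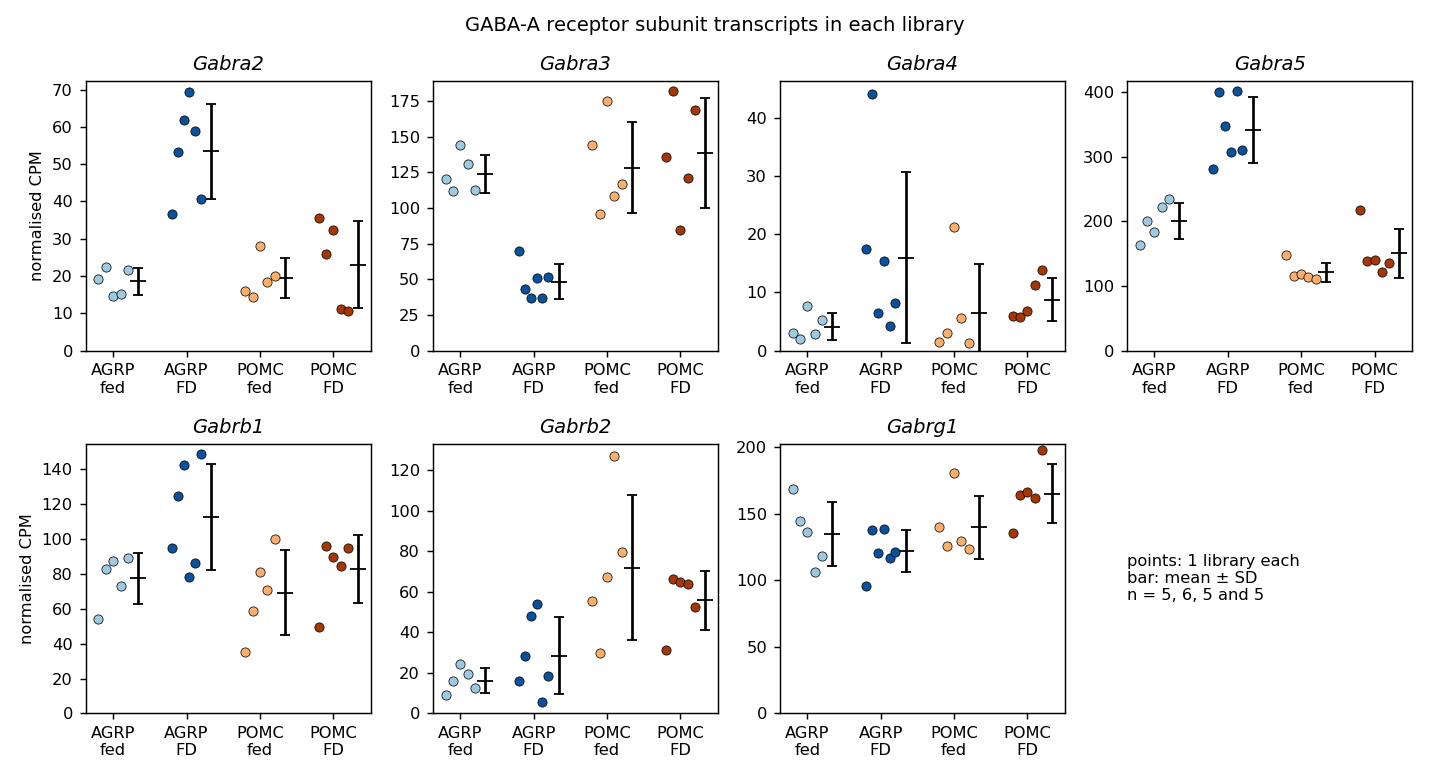
Normalised CPM (y axis, from 0) of the 7 subunit genes in each of the 21 libraries (points, grouped on the x axis), with the mean and SD of each group beside them. The FD AGRP libraries lie apart from the fed AGRP libraries for Gabra2 (36.6 to 69.3 against 14.7 to 22.5), Gabra3 (37.0 to 70.1 against 112 to 144) and Gabra5 (281 to 402 against 164 to 234), and overlap them for the other 4 genes.

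Gabra2 encodes the α2 subunit, common at inhibitory synapses of the forebrain. In fed AGRP libraries it was measured at 19.1, 22.5, 14.7, 15.2 and 21.8 normalised CPM (replicates 1 to 5), and in the 6 FD AGRP libraries at 36.6 (lowest), 56.1 (median) and 69.3 (highest). Every FD library was above every fed library. The log2 fold change was 1.52 ± 0.32 (SE, adjusted p = 0.00184, edgeR quasi-likelihood test). The FD AGRP libraries were also above all 10 POMC libraries, which ranged from 10.5 to 35.5. The other 3 groups overlapped one another, with means of 18.7 (fed AGRP), 19.4 (fed POMC) and 23.1 (FD POMC).

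Gabra3 encodes the α3 subunit, which takes part in synaptic receptors of many subcortical neurons. It was measured at 120, 112, 144, 131 and 112 normalised CPM in fed AGRP libraries, and at 37.0 (lowest), 47.1 (median) and 70.1 (highest) in FD AGRP libraries. All 6 FD libraries were below all 5 fed libraries. The log2 fold change was -1.36 ± 0.21 (SE, adjusted p = 3.81e-05). POMC libraries ranged from 84.8 to 182 and each was above every FD AGRP library. The fed AGRP (mean 124), fed POMC (mean 128) and FD POMC (mean 138) groups overlapped.

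Gabra5 encodes the α5 subunit, known for tonic inhibition outside synapses, and was the most abundant α transcript in both neuron types. It was measured at 164, 201, 183, 222 and 234 normalised CPM in fed AGRP libraries and at 281 (lowest), 328 (median) and 402 (highest) in FD AGRP libraries. The groups did not overlap, and the log2 fold change was 0.76 ± 0.16 (SE, adjusted p = 0.0016). This change is under the 2-fold limit of the study's own criteria (called, changed by over 1 on the log2 scale, and above a mean of 20 CPM in some group), which Gabra2 and Gabra3 passed, beside 4.46% of all genes.

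Gabra4 encodes the α4 subunit of extrasynaptic receptors and was the scarcest of the 7. Fed AGRP libraries gave 2.98, 1.98, 7.61, 2.80 and 5.20 normalised CPM, and FD AGRP libraries 4.203 (lowest), 11.8 (median) and 44.0 (highest, replicate 2). The groups overlapped, and the log2 fold change of 1.96 ± 0.69 (SE) did not pass (adjusted p = 0.0664). Without replicate 2 of the FD AGRP group it was 1.34 (adjusted p = 0.258), while DESeq2 gave 1.94 (adjusted p = 0.0222).

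The β and γ members did not pass in AGRP neurons. Gabrb1 (β1) ranged from 54.2 to 89.2 normalised CPM in fed and from 78.1 to 149 in FD libraries, a log2 difference of 0.54 ± 0.24 (SE, adjusted p = 0.164). Gabrb2 (β2) ranged from 8.88 to 24.2 in fed and from 5.87 to 53.9 in FD libraries, a log2 difference of 0.81 ± 0.41 (SE, adjusted p = 0.234). Gabrg1 (γ1) ranged from 106 to 168 in fed and from 95.9 to 138 in FD libraries, a log2 difference of -0.15 ± 0.16 (SE, adjusted p = 0.656) with a 95% interval from -0.47 to 0.18. In each of these 3 genes the FD libraries overlapped the fed libraries.

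The AGRP mice formed 2 age cohorts with both conditions, postnatal day 46 to 47 (2 fed, 3 FD) and postnatal day 54 to 56 (2 fed, 3 FD). Within the younger cohort the log2 fold changes were 1.45 for Gabra2 (adjusted p = 0.165), -1.28 for Gabra3 (adjusted p = 0.0271) and 0.59 for Gabra5 (adjusted p = 0.242). Within the older cohort they were 1.44 for Gabra2 (adjusted p = 0.135), -1.32 for Gabra3 (adjusted p = 0.0145) and 0.89 for Gabra5 (adjusted p = 0.0294). Gabra3 was called in each cohort. For these 3 genes no FD library fell within the fed range, so any cohort of these libraries had to give the same direction. The shared direction is therefore no separate result. When libraries were scaled to the ERCC spike-in RNA added per sorted cell in place of the normalisation above, the values were 1.44, -1.38 and 0.62 and none of the 7 passed the test, as 97 of 16513 genes did. Both AGRP conditions mixed libraries given 10 µl of spike-in with libraries given 1 to 4.28 µl. The part of these volumes in the loss of calls was not tested. Of the 5 astrocyte markers, Aldh1l1 was called higher in FD AGRP libraries (0.304 to 6.40 normalised CPM, at most 0.0551 in fed), while the summed level of the 5 overlapped (1.60 to 14.5 TPM in FD, 1.73 to 8.92 TPM in fed). Of the 4 tanycyte markers, Dio2 had a log2 fold change of 1.58 (adjusted p = 0.0512) and Scn7a one of 0.75 (adjusted p = 0.0551), and the sum of the 4 was 9.91 to 20.8 TPM in fed and 10.2 to 36.4 TPM in FD AGRP libraries (means 14.2 and 24.7). The part of these markers in the results was not tested.

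**Figure D2:**
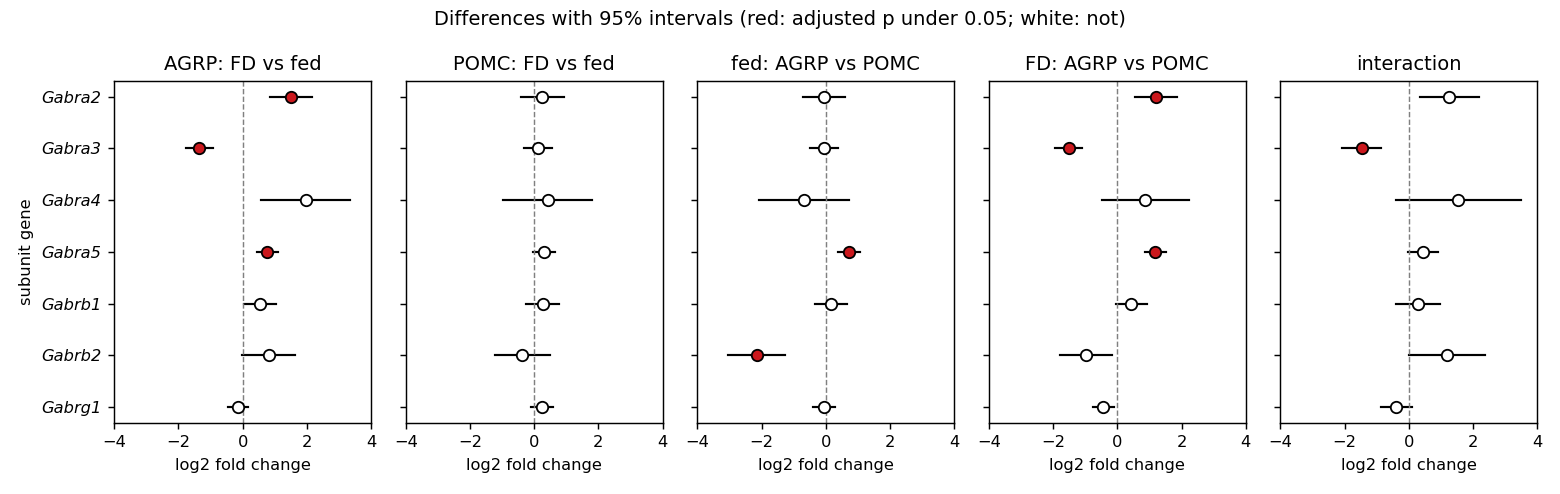
Log2 fold change (x axis) of each of the 7 subunit genes (y axis) in the 5 comparisons, with its 95% interval as a line. Red points have an adjusted p under 0.05: Gabra2, Gabra3 and Gabra5 in the first panel, 0 genes in POMC neurons, Gabra5 and Gabrb2 between fed neuron types, Gabra2, Gabra3 and Gabra5 between FD neuron types, and Gabra3 in the interaction.

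In POMC neurons none of the 7 genes was called between FD and fed mice by edgeR, by DESeq2 or by limma-voom, and 0 of them had an unadjusted p under 0.05. Of all genes 0.375% were called in this comparison (0.182% higher, 0.194% lower), 0.266% by the study's criteria, and for 2.35% the groups did not overlap. The 95% intervals of the log2 fold change bound the differences, from -0.41 to 0.92 for Gabra2, from -0.32 to 0.55 for Gabra3, from -0.02 to 0.65 for Gabra5 and from -0.10 to 0.58 for Gabrg1. The interval of Gabrb1 ran from -0.24 to 0.76, and those of Gabra4 (-0.98 to 1.80) and Gabrb2 (-1.22 to 0.48) were the widest of the 7. A 2-fold rise and a 2-fold fall thus both lay outside the interval of Gabra2, Gabra3, Gabra5, Gabrb1 and Gabrg1. A 2-fold rise lay inside that of Gabra4 and a 2-fold fall inside that of Gabrb2.

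Gabra2 in POMC neurons was measured at 15.9, 14.3, 28.1, 18.5 and 20.1 normalised CPM in fed and at 35.5, 25.8, 32.4, 11.2 and 10.5 in FD libraries. The 2 low FD libraries, replicates 4 and 5, were those with 10 µl of spike-in, which no fed POMC library received. Gabra3 was measured at 144, 95.6, 175, 108 and 117 in fed and at 136, 182, 84.8, 121 and 169 in FD POMC libraries, with full overlap. Gabra5 was measured at 147, 115, 118, 114 and 111 in fed and at 217, 138, 140, 122 and 135 in FD POMC libraries, with 4 of the 5 FD libraries inside the fed range (111 to 147). The 2 fed POMC mice of postnatal day 51 had no FD counterpart, and within the mice of postnatal day 54 to 56 the log2 difference was 0.06 for Gabra2, 0.05 for Gabra3 and 0.39 for Gabra5 (adjusted p between 0.502 and 0.99).

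Whether the response of AGRP neurons differed from that of POMC neurons was tested as an interaction of neuron type and food deprivation, where 6.71% of all genes were called (4.08% higher, 2.63% lower) and 4.55% passed the study's criteria. Gabra3 was the 1 member called, with a log2 difference of -1.47 ± 0.30 (SE, adjusted p = 0.00202) between its change in AGRP neurons (-1.36) and in POMC neurons (0.11). For Gabra2 the changes were 1.52 and 0.26 and their difference of 1.26 ± 0.45 (SE) did not pass (adjusted p = 0.0907). For Gabra5 the changes were 0.76 and 0.31, a difference of 0.45 ± 0.23 (SE, adjusted p = 0.265). The other 4 members had adjusted p values between 0.252 and 0.715. Scaled to the spike-in RNA, the Gabra3 difference was -0.41 and did not pass (adjusted p = 0.871).

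Between the neuron types in fed mice, Gabra5 was higher and Gabrb2 lower in AGRP neurons, so that 2 of 7 genes were called beside 7.57% of all genes (3.33% higher, 4.24% lower). By the study's criteria Gabrb2 alone passed, beside 4.02% of all genes. Gabra5 had a log2 difference of 0.73 ± 0.17 (SE, adjusted p = 0.00366), and its lowest fed AGRP library (164 normalised CPM) was above its highest fed POMC library (147). Gabrb2, the β2 subunit of the commonest receptor of the adult brain, was measured at 8.88, 15.9, 24.2, 19.6 and 12.4 in fed AGRP and at 55.6, 29.7, 67.5, 127 and 79.6 in fed POMC libraries. Every POMC library was above every AGRP library, with a log2 difference of -2.15 ± 0.43 (SE, adjusted p = 0.00103). For 8.93% of all genes these groups did not overlap. Gabra2, Gabra3 and Gabrg1 had log2 differences within 0.06 of 0 (-0.06, -0.05 and -0.05), with 95% intervals from -0.72 to 0.60, from -0.48 to 0.39 and from -0.39 to 0.29. Within the fed mice of postnatal day 54 to 56 (2 AGRP, 3 POMC) Gabra5 had a log2 difference of 0.67 and did not pass (adjusted p = 0.137), and Gabrb2 had one of -2.89 (adjusted p = 0.00961).

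In FD mice the neuron types differed in 3 of the 7 genes, beside 18.6% of all genes (9.28% higher, 9.27% lower), and the same 3 passed the study's criteria, beside 8.11%. Gabra2 (log2 difference 1.21 ± 0.32 SE, adjusted p = 0.0065) and Gabra5 (1.18 ± 0.16 SE, adjusted p = 2.06e-06) were higher in AGRP neurons, and Gabra3 (-1.52 ± 0.21 SE, adjusted p = 1.89e-06) was lower. The groups did not overlap for these 3, as for 11.4% of all genes. Within the FD mice of postnatal day 54 to 56 the differences were 1.28, 1.18 and -1.57, each called (adjusted p at most 0.0198). The Gabrg1 difference of -0.44 ± 0.16 (SE) had an adjusted p of 0.0514 and was called with DESeq2 (adjusted p = 0.0217). The Gabrb2 difference of -0.97 ± 0.40 (SE) had an adjusted p of 0.0893, with 5.87 to 53.9 normalised CPM in FD AGRP and 31.4 to 66.2 in FD POMC libraries, and was called with limma-voom (adjusted p = 0.0478). Of the 4 tanycyte markers 3 were tested and 1 was called, Scn7a, lower in AGRP neurons in fed (log2 difference -2.84) and FD mice (-2.04). Dio2 was not called, with means of 5.52 TPM in fed AGRP, 9.48 in fed POMC, 13.6 in FD AGRP and 7.53 in FD POMC libraries. Th, a marker of other arcuate neurons, was called higher in AGRP neurons in FD mice (3.73, adjusted p = 0.0088). It was at 1.16 to 25.7 normalised CPM in FD AGRP and 0 to 1.52 in FD POMC libraries. The part of these markers in the differences was not tested. Scaled to the spike-in RNA, the FD differences were 2.14 for Gabra2, 2.30 for Gabra5 and -0.34 for Gabra3, and 0 of them passed (adjusted p = 0.103, 0.0568 and 0.763), and in fed mice Gabra5 (0.88) and Gabrb2 (-1.92) did not pass either. The comparisons with FD AGRP libraries share those 6 libraries, and those with fed AGRP libraries share those 5.

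Levels of different genes were compared on the length-scaled TPM of the deposited table. Of the 4 α members Gabra5 had the highest mean TPM in every group, 265 ± 35.0 (SD, n = 5) in fed AGRP, 380 ± 53.6 (n = 6) in FD AGRP, 140 ± 10.3 (n = 5) in fed POMC and 190 ± 45.7 (n = 5) in FD POMC libraries. Gabra3 came next in fed AGRP (113 ± 15.2 TPM), fed POMC (103 ± 29.7 TPM) and FD POMC (120 ± 33.9 TPM) libraries. In FD AGRP libraries it was at 37.5 ± 12.5 TPM (28.7 to 60.9), below Gabra2 at 65.2 ± 11.4 TPM (51.4 to 77.8). In fed AGRP libraries Gabra2 had been at 27.3 ± 4.64 TPM (21.9 to 31.6), below the lowest Gabra3 value (94.9 TPM).

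As shares of the summed TPM of Gabra2, Gabra3, Gabra4 and Gabra5 in a library, Gabra5 made up 64.7% ± 3.88 (SD) in fed and 76.7% ± 3.42 in FD AGRP libraries. Gabra3 made up 27.7% ± 3.94 in fed and 7.72% ± 2.84 in FD AGRP libraries, and Gabra2 6.73% ± 1.42 and 13.3% ± 2.83. The ranges of fed and FD AGRP libraries were apart for each of these shares (Gabra5 60.4 to 69.1% and 71.6 to 81.1%, Gabra3 22.8 to 32.6% and 5.15 to 12.6%, Gabra2 5.10 to 8.20% and 10.6 to 17.9%). In POMC libraries the mean shares were 52.2% (fed) and 54.2% (FD) for Gabra5, 37.04% and 34.5% for Gabra3 and 9.14% and 9.15% for Gabra2, with overlapping ranges. Shares within a library add to a fixed total, so they are given as a description without a test.

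**Figure D3:**
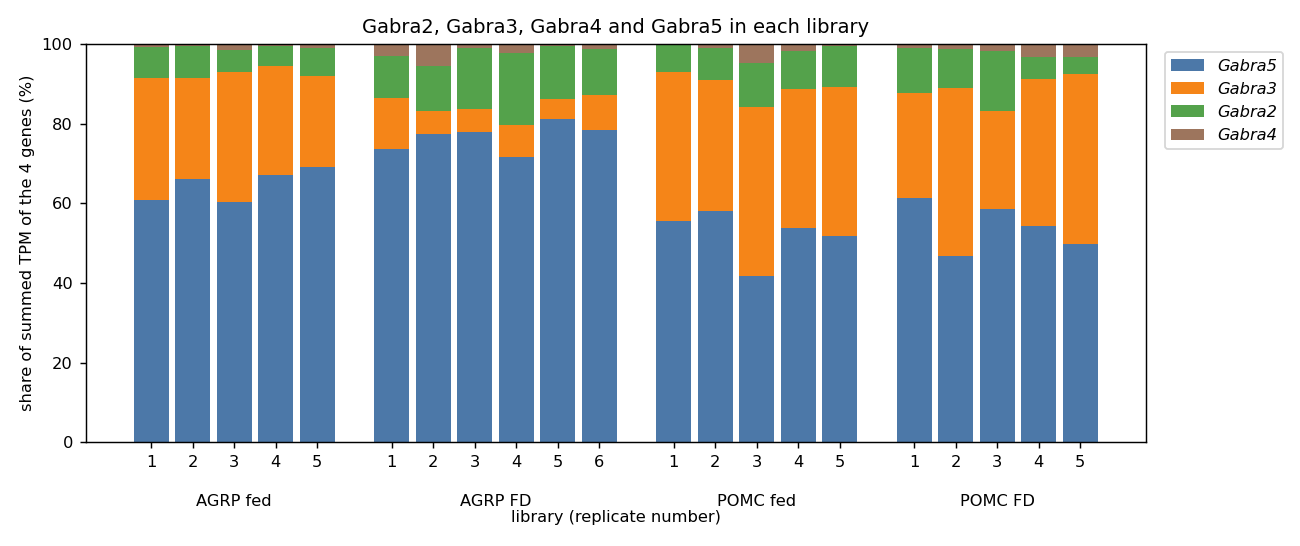
Share of the summed TPM of Gabra5, Gabra3, Gabra2 and Gabra4 (y axis, percent, from 0) taken by each of the 4 genes in each library (x axis, replicate number within each group). In each of the 6 FD AGRP libraries the Gabra3 segment is smaller (at most 12.6%) and the Gabra2 segment larger (at least 10.6%) than in any fed AGRP library.

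Of the β members Gabrb1 had the higher mean TPM in every group. In fed AGRP libraries it was at 87.6 ± 14.9 TPM (SD, n = 5; 64.5 to 101) and Gabrb2 at 13.8 ± 5.23 TPM (7.95 to 21.1), and in FD AGRP libraries at 109 ± 32.9 TPM (n = 6; 64.5 to 152) against 19.9 ± 12.2 TPM (4.27 to 35.3), without overlap. In POMC libraries the ranges met, with means of 71.1 TPM for Gabrb1 and 55.6 TPM for Gabrb2 in fed mice. Gabrg1 was above Gabrg3, the γ3 subunit gene, in AGRP libraries, at 99.2 ± 19.3 TPM (79.6 to 130) against 56.2 ± 10.7 TPM (47.8 to 73.8) in fed mice. In fed POMC libraries Gabrg3 had the higher mean, 115 ± 27.3 TPM against 90.9 ± 20.4 TPM, with overlapping ranges.

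**Figure D4:**
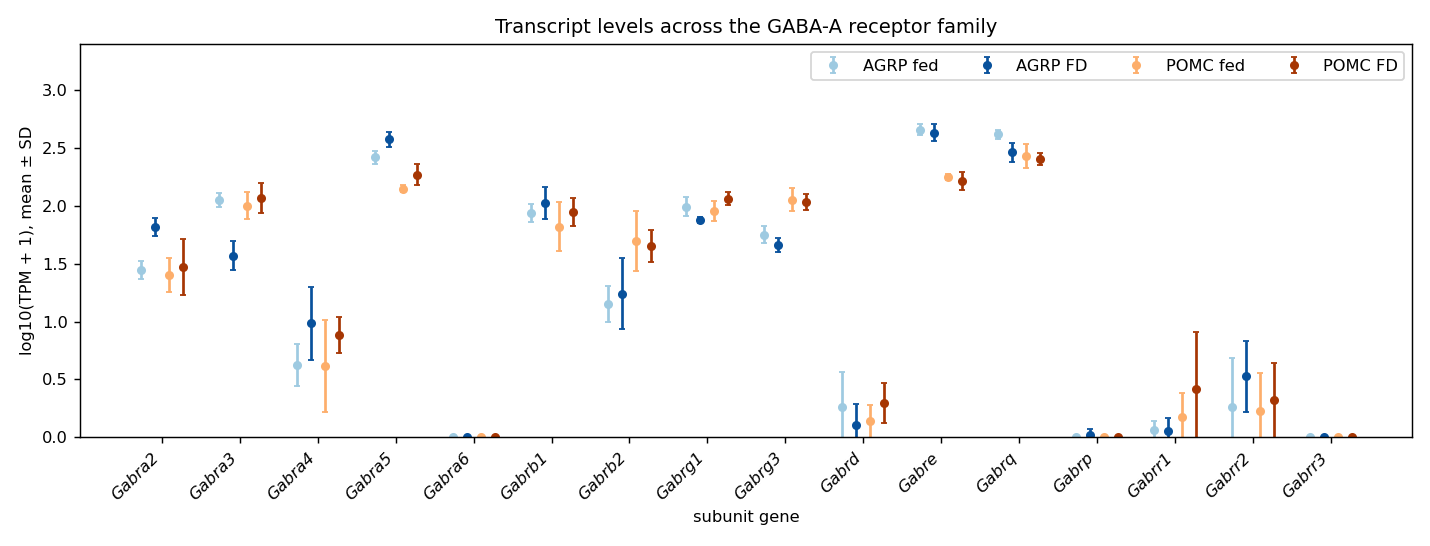
Mean and SD (bars) of log10(TPM + 1) (y axis) for 16 genes of the GABA-A family (x axis) in the 4 groups. Of the genes plotted Gabre, Gabrq and Gabra5 have the highest means, and Gabra6, Gabrd, Gabrp and the ρ genes lie lowest.

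Of the 9 other family genes analysed, 6 were tested and Gabra6, Gabrp and Gabrr3 were too low. Between FD and fed mice 0 of the 6 were called by edgeR, DESeq2 or limma-voom in AGRP or in POMC neurons. In both neuron types 0 had an unadjusted p under 0.05. Of all genes edgeR called 10.3% in AGRP and 0.375% in POMC neurons. In the interaction 0 of the 6 were called by the 3 tools, with 1 at an unadjusted p under 0.05, and edgeR called 6.71% of all genes. Between fed neuron types 2 of the 6 were called, beside 7.57% of all genes. Gabre, the ε subunit, was higher in AGRP neurons (log2 difference 1.16) and Gabrg3 (-1.20) was lower. In FD mice 3 of the 6 were called, beside 18.6% of all genes. Gabre (1.57) and Gabrq (0.39) were higher in AGRP neurons and Gabrg3 (-1.09) was lower. Of these, Gabrq missed the threshold in 9 of 21 leave-one-out fits and in 6 of 8 other alternatives (adjusted p up to 0.187).

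Neighbouring subunit genes had different values in AGRP neurons. On chromosome 5 the log2 fold changes were -0.15 (Gabrg1), 1.52 (Gabra2), 1.96 (Gabra4) and 0.54 (Gabrb1), of which Gabra2 passed the test. On chromosome 7 Gabra5 rose, with -0.07 for its neighbour Gabrg3 (adjusted p = 0.835). On chromosome X Gabra3 fell between Gabre (0.18, adjusted p = 0.471) and Gabrq (-0.25, adjusted p = 0.283). Differences between neighbours were not tested.

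**Figure D5:**
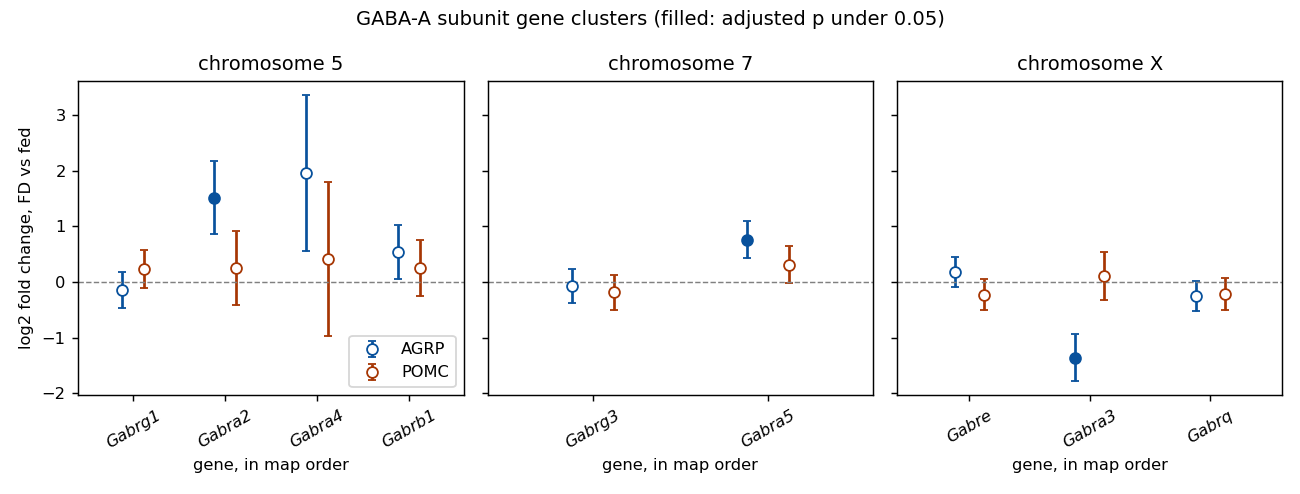
Log2 fold change between FD and fed mice (y axis, with 95% intervals) of neighbouring subunit genes, in their order along 3 chromosomes (x axis), in AGRP (blue) and POMC (brown) neurons; filled points have an adjusted p under 0.05. Of the genes plotted Gabra2, Gabra5 and Gabra3 are filled in AGRP neurons and 0 are filled in POMC neurons.

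The genes that surround the receptor were taken from fixed lists and described by counts. Over all tested genes, log2 fold changes in AGRP neurons had a median of -0.02. Of 16 genes for anchoring, assembly and trafficking, 1 was called in AGRP neurons, beside 10.3% of all genes, namely Plcl2, a phospholipase C-like protein that binds GABA-A subunits, which rose by 0.94 (adjusted p = 0.0159, and 0.058 without replicate 4 of the fed AGRP group). Gphn, which encodes the scaffold gephyrin, differed by 0.16 (adjusted p = 0.778). The median of the 16 was 0.20. Ubqln1, a ubiquilin that stabilises receptor subunits, was the 1 gene of these 16 called in the interaction (1.00, adjusted p = 0.0135), beside 6.71% of all genes. It was at 180 to 323 normalised CPM in FD and 130 to 203 in fed AGRP libraries. In POMC libraries it was at 102 to 160 in FD and 156 to 253 in fed mice.

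The chloride gradient sets the size and sign of the current through these receptors. Of 8 genes on that list, 2 were called in AGRP neurons, beside 10.3% of all genes (median -0.06). Slc12a5, the neuronal chloride exporter KCC2, fell by 0.82 on the log2 scale (SE 0.13, adjusted p = 7.95e-05), from 305 to 384 normalised CPM in fed to 182 to 216 in FD libraries, without overlap. Stk39, a kinase that regulates chloride transporters, rose by 0.69 (adjusted p = 0.039, up to 0.139 with 1 library left out). Slc12a5 was also called in the interaction (-0.65, adjusted p = 0.0361, up to 0.073 with 1 library left out). Slc12a2, the chloride importer NKCC1, was higher in AGRP than in POMC neurons in fed mice (1.10, adjusted p = 0.000273) and in FD mice (0.66, adjusted p = 0.0135).

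Of 8 genes for GABA synthesis, release, uptake and breakdown, 7 were tested and 3 were called in AGRP neurons, beside 10.3% of all genes (median -0.18). The GABA transporter Slc6a11 (GAT3) fell by 1.18 on the log2 scale (adjusted p = 0.0317, up to 0.0763 with 1 library left out), and Aldh5a1, which breaks down GABA's product, fell by 0.60 (adjusted p = 0.0143). Slc6a6, the taurine transporter, rose by 0.58 (adjusted p = 0.0322, up to 0.102 with 1 library left out). The synthetic enzyme Gad2 was called in the interaction (0.90, adjusted p = 0.00708). Slc32a1, the vesicular GABA transporter, was at 74.2 to 149 normalised CPM in fed AGRP and 0.0553 to 14.8 in fed POMC libraries (log2 difference 4.75, adjusted p = 6.23e-05).

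Of 6 other inhibitory receptor genes, the 2 subunits of the metabotropic GABA-B receptor were called in AGRP neurons, beside 10.3% of all genes, in opposite directions. Gabbr1 rose by 0.64 (adjusted p = 0.0016) and Gabbr2 fell by 0.59 (adjusted p = 0.0223), and both were called in the interaction (0.67, adjusted p = 0.0305, and -0.85, adjusted p = 0.0324). With 1 library left out the adjusted p of Gabbr2 reached 0.0776 in AGRP neurons, and in the interaction it reached 0.0647 for Gabbr1 and 0.0728 for Gabbr2. With a replicate block Gabbr2 (0.059 in AGRP neurons, 0.0696 in the interaction) and Slc12a5 (0.0659 in the interaction) missed the threshold. The glycine receptor gene Glra2 was higher in AGRP than in POMC neurons in fed mice (4.80, adjusted p = 1.03e-05) and in FD mice (3.26, adjusted p = 0.000298). Dbi, which encodes a peptide ligand of the benzodiazepine site, differed by -0.11 in AGRP neurons (adjusted p = 0.929). In POMC neurons 0 of the 38 tested genes of these lists were called by edgeR, beside 0.375% of all genes. Of the 38, 7 had an unadjusted p under 0.05, and DESeq2 and limma-voom each called 1. In the interaction 5 of the 38 were called by edgeR, beside 6.71% of all genes. Between fed neuron types 5 were called, beside 7.57%, and between FD neuron types 14, beside 18.6%.

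The transcripts most like each subunit gene were sought among the genes with a mean above 20 CPM in at least 1 group, by Pearson's r of log2 CPM over the 21 libraries, which share group differences and depth. Gabra3 was closest to the NMDA receptor subunit gene Grin2b (r = 0.927) and to Efnb3 (r = 0.925), and Gabra5 to Mast4 (r = 0.956) and Ncoa2 (r = 0.933). Gabra2 was closest to Lyve1 (r = 0.916) and Dlat (r = 0.898), and Gabrb2 to Col25a1 (r = 0.892). Lower values were found for Gabrg1 (Arpp19, 0.837, and Fam169a, 0.832), Gabrb1 (Zcchc11, 0.82, and Camsap1, 0.782) and Gabra4 (E130309D02Rik, 0.781, and Itpr1, 0.72).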

How the data were processed

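The deposited count table held whole-number read counts per gene, made by the authors without pooling replicates: reads were trimmed with cutadapt 1.7.1, abundant sequences were removed with Bowtie2 2.1.0, the rest were mapped to mm10 with STAR 2.4.0i and counted without strand over GENCODE VM4 genes with HTSeq 0.6.1p1. The authors' TPM table divides those counts by summed exon length and scales each library to 1000000. RNA had been amplified before library construction, so counts are not independent molecules and floors cover counting error only. The intervals also include the spread between libraries that the model estimated. Reads in no gene made up 24.2% to 52.1% of the counted reads of a library and stayed out of library sizes, as did the 92 spike-in rows.

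Counts were fitted with edgeR 4.0.16 (R 4.3.3; quasi-likelihood test, TMM, a mean for each of 4 groups, 21 libraries), on 16513 genes above 1 CPM in at least 3 libraries. All tests were two-sided and p-values were adjusted over all genes tested (Benjamini-Hochberg). The study itself used limma-voom, which is an alternative here (limma 3.58.1), with DESeq2 1.42.0, other scalings and filters, blocks and leaving out each library. The edgeR step was tested on simulated data. Each SE is the absolute log2 fold change divided by the square root of the F statistic of the test. The 95% intervals were computed from this SE. Each library is a separate mouse. Named genes were the 7 members, family genes called or highest among those analysed, at most 4 called genes of each pathway list and comparison, and the 2 most alike genes; members and lists were chosen with earlier results of these data known. Promoter sequences came from RefSeq. A few genes that this rule covers are not reported here. Within-cohort fits were added after the data were seen.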

Additional observations from a re-analysis of the deposited data

Results flagged for a closer look

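Among 28 tests of single libraries (each of the 7 genes in each group, normalised CPM), 6 found a library far from the others of its group by Dixon's limit, where chance gives about 1 in 20. Gabra4 stood at 44.0 in replicate 2 of the FD AGRP group (next 17.5) and at 21.3 in replicate 3 of the fed POMC group (next 5.63). Gabra5 stood at 147 in replicate 1 of the fed POMC group (next 118) and at 217 in replicate 1 of the FD POMC group (next 140). Gabrb1 stood at 49.3 in replicate 1 of the FD POMC group (next 84.4), the library with the fewest sorted cells (44). Gabrg1 stood at 180 in replicate 3 of the fed POMC group (next 140). The change of Gabra3 with food deprivation differed between the neuron types, by -1.47 on the log2 scale in the interaction (adjusted p = 0.00202).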

How the results depend on the processing

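Counts of genes called among the 7 stayed within 1.5 times of the reported number with limma-voom, DESeq2, RLE scaling, no filter on low counts, the compared groups alone and the age block. Scaling to spike-in RNA per sorted cell, which moved the median of all genes by -1.11 in POMC neurons, 1.10 between FD neuron types and 1.04 in the interaction, left 0 of the 7 called in every comparison (13 to 1117 of all genes). Libraries given 10 µl of spike-in held 4.9% to 13.5% ERCC reads, and those given 1 to 4.28 µl held 0.125% to 0.723%. In AGRP neurons 10 µl went to fed replicates 2 and 3 and to FD replicates 4 and 6. In POMC neurons 10 µl went to FD replicates 4 and 5 and to no fed library. Spike-in volume and food deprivation thus cannot be fully told apart there. Under this scaling the POMC values that changed sign became -0.52 (Gabra2), -0.97 (Gabra3), -0.42 (Gabra4), -0.80 (Gabra5), -0.71 (Gabrb1) and -0.86 (Gabrg1). Between fed neuron types those that changed sign became 0.18 (Gabra2) and 0.0653 (Gabra3). Between FD neuron types they became 0.33 (Gabrb2), 0.68 (Gabrg1), 0.63 (Lhfpl4, from -0.48), 0.84 (Nsf, from -0.44) and 0.22 (Slc12a5, from -0.90). Lhfpl4, Nsf and Slc12a5 had been called in that comparison in the main fit. In the interaction the values that changed sign became 0.71 (Gabrg1), 0.21 (Slc12a5) and 0.39 (Gabbr2). Gabra3 became -0.34 between FD neuron types (adjusted p = 0.763), which is -1.44 relative to the median of all genes, and -0.41 in the interaction (adjusted p = 0.871).

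With the study's criteria 1 of 7 was called between fed neuron types. Within postnatal day 46 to 47, 1 was called in AGRP neurons and Gabrg1 became 0.0694. Within postnatal day 54 to 56, 1 was called between fed neuron types, Gabrb1 became -0.29 and Gabrg1 0.11 there, and in POMC neurons Gabra4 became -0.11 and Gabrb1 -0.0198. In the POMC libraries with 1 µl of spike-in Gabra3 became -0.000797, Gabra4 -0.61 and Gabrb1 -0.11. With the age block Gabrg1 between fed neuron types became 0.0142. In all these cases the cause was not tested.

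Replicate numbers did not pair the mice (correlations of deviations from -0.168 to 0.106, not all above 0.1). A replicate block left 3 of 7 called in AGRP neurons, 0 in POMC neurons, 2 between fed and 4 between FD neuron types and 1 in the interaction.

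Leaving out each library in turn gave 3 to 4 genes called in AGRP neurons, 0 in POMC neurons, 2 between fed and 3 to 5 between FD neuron types (5 without replicate 4 of the FD AGRP group) and 1 in the interaction. Gabra4 in AGRP neurons was called without replicate 5 of the FD AGRP group (adjusted p = 0.0478) and without replicate 3 of the fed POMC group (adjusted p = 0.036). Between fed neuron types the ranges crossed 0 for Gabra2 (-0.14 to 0.12), Gabra3 (-0.129 to 0.0920), Gabra4 (-1.01 to 0.53), Gabrb1 (-0.00617 to 0.332) and Gabrg1 (-0.145 to 0.0568). Gabra4, with 25 to 765 counts a library, is the member that depth limits most.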
